A study of Homo sapiens with 18 samples.

Results

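The regions described here are MAX peaks found with every form of MYC that was compared and lying at an end of a single gene. A member is a peak of the list from cells with wild-type MYC (WT) that overlaps a peak of the MYC-3A list and a peak of the MYC-7A list by at least 1 bp, and whose summit lies within 1000 bp of an outer end of exactly 1 protein-coding gene. The members were chosen by measured values, the presence and position of peaks, so their presence in all 3 lists is not a result. The rule selected 8007 of the 34617 WT peaks on chromosomes 1 to 22 and X (23.1%; the whole WT list holds 34622 peaks). They lay at 7755 of 19974 protein-coding genes (38.8%). Of these genes, 7507 had 1 member, 244 had 2 and 4 had 3.

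Binding of MAX was measured by ChIP-Rx, which is chromatin immunoprecipitation and sequencing with a mouse spike, here NIH3T3 cells, as the reference genome. The cells were U2OS, a human osteosarcoma line, in which endogenous MYC was knocked out and MYC was supplied from a doxycycline-inducible (Tet-On) transgene, so every group shares the knockout. The 6 groups were MYC-3A cells with doxycycline at 1 µg/ml for 24 h, MYC-3A cells with vehicle (PBS) for 24 h, MYC-7A cells with doxycycline, MYC-7A cells with vehicle, MYC-WT cells with doxycycline and MYC-WT cells with vehicle, each with 2 immunoprecipitated libraries and 1 input. The labels do not say which residues 3A and 7A change. Nor do they say whether each line is 1 clone. The antibody is given as MAX in the sample fields and as anti-FLAG in the protocol text. From each MYC form came a single deposited peak list, with 27294 peaks for 3A, 25159 for 7A and 34622 for WT, and these lists do not separate the libraries with doxycycline from those without. There are therefore no replicate values, no p-value is given, and the intervals printed cover counting error only. Numbers from different lists are printed next to each other but were not put on a common scale.

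MAX is the obligate partner of MYC: the pair binds DNA as a heterodimer through a basic helix-loop-helix leucine zipper, with the palindrome CACGTG, the canonical E-box, as its preferred site. MAX also pairs with the MXD proteins, MNT and MGA, which act as antagonists of MYC at the same kind of site, so a MAX peak alone does not tell which partner is there. MYC and MAX are known to occupy open, CpG-rich promoters of genes for ribosome production, protein synthesis and metabolism, many of which hold no canonical E-box.

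The 7 stretches of 100 bases below show strong members with a CACGTG at or near the summit and strong members with none in the listed promoter. They are parts of promoter sequences from RefSeq (GRCh38.p14), each 5′ to 3′ on the strand of the gene, and CACGTG is in capitals. MTHFD1L encodes a mitochondrial enzyme of one-carbon metabolism, HK2 hexokinase 2 of glycolysis, ODC1 ornithine decarboxylase of polyamine synthesis, EIF4H a translation initiation factor and IARS1 the cytosolic isoleucyl-tRNA synthetase. The stretches lie at chr6:150866283-150866382 (+ strand), chr2:74834970-74835069 (+ strand), chr2:10447970-10448069 (- strand), chr7:74174112-74174211 (+ strand) and chr9:92293827-92293926 (- strand).
MTHFD1L: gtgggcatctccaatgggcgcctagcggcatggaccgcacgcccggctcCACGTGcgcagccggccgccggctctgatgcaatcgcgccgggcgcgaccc
HK2: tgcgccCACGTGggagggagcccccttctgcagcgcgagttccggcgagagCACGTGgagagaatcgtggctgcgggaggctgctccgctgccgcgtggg
ODC1: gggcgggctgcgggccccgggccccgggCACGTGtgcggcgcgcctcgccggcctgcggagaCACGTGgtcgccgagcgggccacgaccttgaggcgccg
EIF4H: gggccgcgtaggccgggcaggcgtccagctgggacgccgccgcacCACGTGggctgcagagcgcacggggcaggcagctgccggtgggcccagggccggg
IARS1: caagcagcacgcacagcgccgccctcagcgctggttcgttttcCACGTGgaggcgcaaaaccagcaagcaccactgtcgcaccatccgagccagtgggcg
The WT summit stood at base 52 of the stretch of MTHFD1L and at base 51 of those of HK2, ODC1, EIF4H and IARS1. The centre of the nearest CACGTG was 0.5 bp from it for MTHFD1L, 2.5 bp for EIF4H, 3.5 bp for HK2, 4.5 bp for IARS1 and 14.5 bp for ODC1. HK2 and ODC1 have 2 such sites within the stretch. A listed start can lie inside the outer ends of its gene: the WT summits of MTHFD1L, HK2 and ODC1 were 632 bp, 893 bp and 308 bp inside the outer start.
UTP11, which codes for a protein of small ribosomal subunit processing, and SNX25, a sorting nexin gene, have none in the 300 bases listed, at chr1:38012484-38012583 (+ strand) and chr4:185204046-185204145 (+ strand).
UTP11: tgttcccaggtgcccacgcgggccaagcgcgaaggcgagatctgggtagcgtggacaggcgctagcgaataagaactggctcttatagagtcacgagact
SNX25: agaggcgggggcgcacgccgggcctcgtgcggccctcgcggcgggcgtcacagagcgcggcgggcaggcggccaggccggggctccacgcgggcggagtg
Here the WT summit stood at base 9 for UTP11 and base 51 for SNX25. The listed promoter of UTP11 begins at base 1 of its stretch, so a CACGTG just before that base would be missed. Each stretch holds 1 CACGCG, a variant of the E-box. In SNX25 it lies near the end of the stretch, away from the summit. Not every strong member without CACGTG has the variant. MRPL3, a mitochondrial ribosomal protein gene with 47.0 in 3A, 42.5 in 7A and 123.4 in WT, has neither string in its 100 bases, which are not printed. Its WT summit stood at base 96 of them, at the end of the listed promoter, so few bases past the summit were searched. GUSB, also not printed, has 1 CACGCG. Fold enrichment at the UTP11 summit was 269.9 in the 3A list, 186.1 in the 7A list and 94.4 in the WT list, and at the SNX25 summit 47.9 in 3A, 52.0 in 7A and 133.6 in WT. SNX25 was the strongest WT member whose listed promoter holds the summit and no CACGTG.

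Fold enrichment, the peak caller's ratio of coverage to local background at a summit, varied widely among members in each list. The median over the 8007 members was 13.99 in the 3A list (95% interval of the median 13.7 to 14.2), 13.8 in the 7A list (13.59 to 14.003) and 16.1 in the WT list (15.7 to 16.4). The quartiles were 9.59 and 21.5 in 3A, 9.36 and 20.7 in 7A, and 10.3 and 26.3 in WT. The strongest member reached 311.3 in 3A, 265.4 in 7A and 246.0 in WT, and the weakest stood at 2.70 in 3A, 2.84 in 7A and 2.52 in WT. From the fold enrichment and the −log10 p of each summit, the coverage was worked back for 99.3% of members in 3A, 89.2% in 7A and 98.95% in WT. The median summit then had a coverage of 126 in 3A, 172 in 7A and 232 in WT, over a background of 8.0 in 3A, 12.1 in 7A and 13.9 in WT. Both medians were thus lowest in the 3A list and highest in the WT list, but the lists share no common scale and their depth is unknown. At MNT the solved coverage was 155.05 in 3A, 219.0 in 7A and 322.29 in WT, so that of 3A and WT is not a whole count of reads. Scaling before peak calling could change the order of the lists, and this was not tested. The members not solved in 7A include ZFYVE27, RNF130 and FMNL3, which are among the strongest of that list.

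Members were wider than common peaks away from gene ends, and narrower than those at the ends of 2 or more genes. Their median width was 844 bp in 3A, 917 bp in 7A and 989 bp in WT, against 578 bp, 672 bp and 552 bp over each whole list. The rule asks for overlap in all 3 lists, which can favour wide peaks, and its part in this difference was not tested. Peaks common to the 3 lists but inside a gene away from its ends (n = 6791) had median widths of 540 bp in 3A, 597 bp in 7A and 613 bp in WT, and median fold enrichments of 10.96 in 3A, 10.5 in 7A and 12.1 in WT. Common peaks outside genes (n = 6782) had median fold enrichments of 10.5 in 3A, 9.99 in 7A and 11.2 in WT. Common peaks at the ends of 2 or more genes (n = 1576) were higher on both measures than the members, with fold enrichments of 15.7 in 3A, 14.3 in 7A and 17.9 in WT and widths of 942 bp in 3A, 984.5 bp in 7A and 1090 bp in WT. At 1 gene end, 611 peaks of the WT list had no partner in either mutant list, and their median WT fold enrichment was 7.65.

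The share of members differed by peak strength. The rule asks for a peak in all 3 lists, and how much that requirement adds to the difference was not tested. Each list was cut into 10 classes of equal size by fold enrichment. In the weakest class, 11.8% of 3A peaks (10.6 to 13.0%), 13.6% of 7A peaks (12.2 to 15.0%) and 6.82% of WT peaks (6.001 to 7.71%) were members or their partners. In the strongest class, the shares were 49.5% in 3A (47.6 to 51.4%), 47.9% in 7A (45.9 to 49.9%) and 45.3% in WT (43.7 to 47.0%). The share was higher in each class than in the next weaker class in all 3 lists. WT peaks at 1 gene end that had no partner in either mutant list, or in 1 of them, had median WT fold enrichments of 7.65 and 7.53. Among the 23156 common peaks alone, members made up 34.6%. In 10 classes of these by strength, the share was 19.6% in the weakest and 50.04% in the strongest class of 3A, 17.8% and 48.1% in 7A, and 18.6% and 47.7% in WT.

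**Figure D1:**
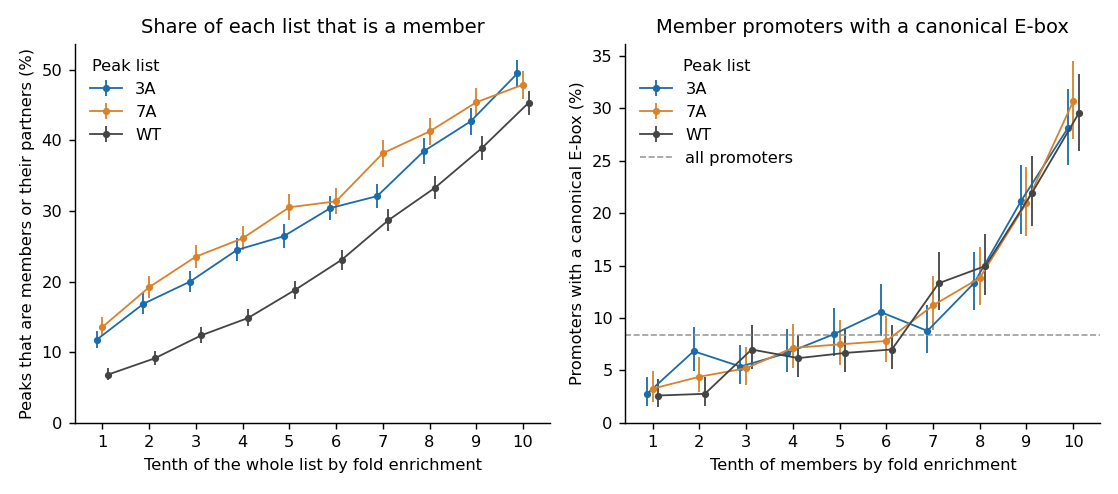
Left: share (%) of the peaks in each of 10 equal classes of a list, from weakest (1) to strongest (10) by fold enrichment, that are members or partners of members. Right: share (%) of member promoters with the canonical E-box CACGTG by 10 equal classes of the 6153 members with a listed promoter. Bars are 95% Clopper-Pearson intervals and the dashed line is the 8.34% of all promoters. Both shares are highest in the strongest class, at 45.3 to 49.5% on the left and 28.1 to 30.7% on the right.

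The order of the members was similar, but not the same, in the 3 lists. Across the 8007 members, Spearman's rho of the fold enrichments was 0.730 between 3A and 7A, 0.698 between 3A and WT, and 0.703 between 7A and WT. These are descriptions, since the members share sequence, mappability and cell line across lists. Of the 100 strongest members of each list, 56 were shared by 3A and 7A, 34 by 3A and WT, 30 by 7A and WT, and 23 by all 3. Of the 1000 strongest, 623 were shared by 3A and 7A, 592 by 3A and WT, 571 by 7A and WT, and 445 by all 3. Some members were strong in 1 list and in the weaker part of another: of the 1000 strongest in 3A, 25 were below the members' median in 7A and 36 below it in WT; of the 1000 strongest in 7A, 27 were below it in 3A and 45 in WT. Of the 1000 strongest in WT, 49 were below the median in 3A and 49 in 7A.

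The strongest WT member lay 58 bp upstream of ZNF131, a zinc finger gene, at chr5:43120518-43121968 (hg38), with a fold enrichment of 95.8 in 3A, 78.9 in 7A and 246.0 in WT. It ranked 35th in 3A, 61st in 7A and 1st in WT, and all 3 summits were at the same base. PTPRS, a receptor tyrosine phosphatase gene, followed at chr19:5339627-5341444 with 114.2 in 3A, 160.8 in 7A and 212.5 in WT, and its promoter has 3 CACGTG. Nucleolin (NCL), an abundant nucleolar protein, had 79.1 in 3A, 69.9 in 7A and 177.7 in WT, with the summit 665 bp inside the gene. The peak at DHX33, an RNA helicase gene, had 195.1 in 3A, 53.1 in 7A and 186.2 in WT, so that it ranked 4th in 3A, 227th in 7A and 3rd in WT. DIAPH1, a formin gene, had 41.3 in 3A, 20.8 in 7A and 175.1 in WT, ranking 450th, 1981st and 6th in these lists. The other members among the 10 strongest in WT were at SLC33A2, KCNQ5, NABP1, METAP1D and YBX1, between 37.3 and 89.6 in 3A, 30.1 and 104.3 in 7A, and 148.0 and 176.0 in WT. Of these 10, the DHX33 peak alone had a higher ratio in a mutant list than in WT. They were chosen by their WT ratio, which favours a higher value there, and the lists share no common scale. The listed promoters of ZNF131, NCL, KCNQ5, NABP1 and YBX1 held no CACGTG, and those of DIAPH1 and METAP1D held 1 each. DHX33 and SLC33A2 had no listed promoter.

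The leading partners in the mutant lists were mostly other peaks than the 10 strongest in WT, with DHX33, 4th in 3A, among both. PGK1, the glycolytic phosphoglycerate kinase gene, at chrX:78103556-78105323, had 311.3 in 3A, 40.2 in 7A and 53.8 in WT, ranking 1st, 452nd and 436th. UTP11 ranked 2nd in 3A, 5th in 7A and 85th in WT. FMNL3, another formin gene, had 207.6 in 3A, 202.4 in 7A and 103.3 in WT. DHDDS, whose product makes dolichol precursors, had 193.2 in 3A, 152.4 in 7A and 99.7 in WT. In the 7A list ZFYVE27, which encodes the ER-shaping protein protrudin, came first with 265.4, beside 171.7 in 3A and 96.3 in WT. RNF130 had 106.8 in 3A, 208.3 in 7A and 93.0 in WT, and MLLT1 had 81.3 in 3A, 193.7 in 7A and 58.1 in WT. UTP11, FMNL3, DHDDS, ZFYVE27 and RNF130 had 93.0 or more in WT. Their highest ratio was in a mutant list, but they were chosen by their ratio there. The weakest WT members were at DAD1, TJAP1 and GATAD2B, and had 9.08, 5.58 and 7.19 in 3A, 8.01, 6.25 and 4.78 in 7A, and 2.52, 2.56 and 2.64 in WT.

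For most members the summits of the 3 lists fell close together. The median distance to the WT summit was 15 bp for 3A partners and 15 bp for 7A partners, and 83.7% of 3A partners and 82.9% of 7A partners had their summit within 100 bp. Both were within 100 bp for 78.0% of members (77.0 to 78.9%), against 80.9% of common peaks at 2 or more gene ends (78.9 to 82.8%), 84.0% of those inside genes (83.1 to 84.9%) and 86.6% of those outside genes (85.8 to 87.4%). Members had the lowest of these 4 shares. Summits lay over 500 bp apart for 333 members in 3A and 368 in 7A. At ENO1, the enolase gene, the partner summits were 861 bp (3A) and 854 bp (7A) from the WT summit, with fold enrichments of 76.4 in 3A, 96.3 in 7A and 85.5 in WT. At SRSF1, a splicing factor gene, the 3A summit was 1007 bp and the 7A summit 27 bp from the WT summit. A WT member overlapped a single 3A peak in 7752 cases and a single 7A peak in 7871, and 2 peaks in 253 and 135 cases of the same lists.

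The members lay at gene starts. The strand was listed for the genes of 6551 members, of which 6355 (97.0%, 96.6 to 97.4%) had their summit within 1000 bp of the outer start and 196 within 1000 bp of the other end alone. The median summit was 40 bp upstream of the start in 3A (quartiles −155 and 155.5 bp), 41 bp upstream in 7A (−158 and 141 bp) and 23 bp upstream in WT (−149 and 216 bp). Summits within 250 bp of the start made up 65.4% in 3A, 65.6% in 7A and 62.8% in WT. Over 500 bp inside the gene lay 10.6% in 3A, 10.2% in 7A and 11.6% in WT. By the position of the WT summit, members 250 to 100 bp upstream of the start had 15.6 in 3A, 15.6 in 7A and 17.02 in WT (n = 1188). Those from 100 bp upstream to the start had 13.9 in 3A, 13.5 in 7A and 14.6 in WT (n = 1428), and those 250 to 500 bp inside the gene had 14.04 in 3A, 14.3 in 7A and 18.1 in WT (n = 707). Those 500 to 250 bp upstream had 15.4 in 3A, 14.5 in 7A and 17.5 in WT (n = 637). The highest medians of 3A and 7A were thus upstream of the start. The 196 members at the other end had 11.1 in 3A, 10.6 in 7A and 11.1 in WT, and median widths of 544.5 bp, 580 bp and 653.5 bp. JUNB, an immediate early AP-1 gene, and HORMAD2, a meiotic gene, had their members at that end. The JUNB peak had 53.7 in 3A, 66.8 in 7A and 84.3 in WT.

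**Figure D2:**
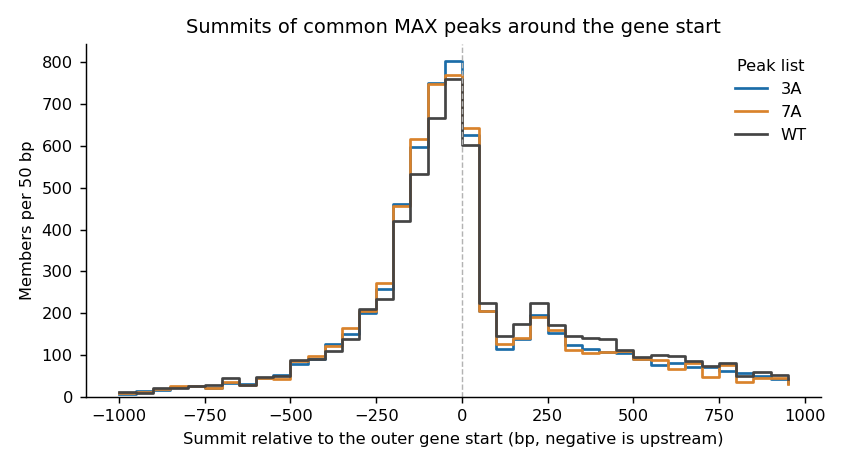
Number of members per 50 bp by the position of the 3A, 7A and WT summit relative to the outer gene start (bp, negative is upstream), for the 6355 members at a start. In all 3 lists the highest bin is the 50 bp upstream of the start, and a lower shoulder follows inside the gene.

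The limit of 1000 bp runs through a continuous range of distances. Members 951 to 1000 bp from the nearest gene end (n = 76) had median fold enrichments of 11.2 in 3A, 11.3 in 7A and 12.95 in WT, and common peaks 1001 to 1050 bp away (n = 81) had 12.7 in 3A, 14.3 in 7A and 17.4 in WT. Nearest to the limit were TMEM65 at 1000 bp and THSD7B at 998 bp inside it, with WT fold enrichments of 15.7 and 27.7, and DLL3 and SLC16A7, both 1001 bp away, with 35.1 and 23.1. The rule counts protein-coding genes alone, and 22.8% of members (21.9 to 23.8%) also had an end of a long noncoding RNA gene within 1000 bp, against 7.42% of common peaks at 2 or more coding gene ends (6.18 to 8.83%). Members with such a neighbour had a median of 14.8 in 3A, 14.5 in 7A and 17.2 in WT, and those without 13.8 in 3A, 13.6 in 7A and 15.7 in WT.

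Most member promoters held no canonical E-box, and those that did had stronger peaks. For 6153 members a listed start lay within 1000 bp of the WT summit, and the 300-base promoter there was searched on both strands. The WT summit itself lay in the searched bases for 3461 members, of which 544 held CACGTG. For the others, a site at the summit would fall outside the search. CACGTG was in 11.2% of these promoters (10.4 to 12.0%), against 13.8% at common peaks of 2 or more gene ends (12.1 to 15.8%), 8.34% of all 22156 promoters of protein-coding genes and 5.56% of the 9653 promoters with no WT summit within 1000 bp (5.11 to 6.04%). For the strings, members were ranked among these 6153 alone. Of the 1000 strongest WT members 27.1% had CACGTG (24.4 to 30.0%), and of the 1000 weakest 2.30% (1.46 to 3.43%). In 10 equal classes of the 6153 members, the share was 2.76% in the weakest and 28.1% in the strongest class of 3A, 3.25% and 30.7% in 7A, and 2.60% and 29.5% in WT. Promoter base composition moved with strength too: the median GC content was 69.3% for the 1000 strongest and 64.7% for the 1000 weakest WT members, against 62.3% for all promoters, and its part in these shares was not tested.

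Members with a CACGTG in the promoter had a higher median fold enrichment than those without in each list, and the medians for 2 and for 3 or more rest on few members. The searched bases need not hold the summit, so members with none can still have a site nearer to it. Members with none (n = 5464) had 13.7 in 3A (95% interval of the median 13.4 to 13.9), 13.3 in 7A (13.1 to 13.6) and 15.5 in WT (15.1 to 15.8). Members with 1 (n = 626) had 21.1 in 3A (19.9 to 22.5), 21.1 in 7A (19.9 to 22.6) and 28.4 in WT (26.1 to 30.3). Members with 2 (n = 55) had 28.0 in 3A (21.4 to 39.3), 25.4 in 7A (21.1 to 33.8) and 32.0 in WT (23.9 to 39.4), and the 8 members with 3 or more had 42.0 in 3A, 40.2 in 7A and 53.0 in WT. The intervals for 1 and for 2 overlap in all 3 lists. Those for 3 or more are wide, at 12.4 to 114.2 in 3A, 24.9 to 160.8 in 7A and 21.3 to 212.5 in WT, and in 3A this range covers the interval for none. LAMP1, which encodes a lysosomal membrane glycoprotein, had 6 CACGTG in its promoter beside 65.7 in 3A, 72.0 in 7A and 56.1 in WT. CDK4, the G1 cyclin-dependent kinase gene and an E-box target of MYC, had 3 beside 39.1 in 3A, 39.2 in 7A and 38.2 in WT.

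**Figure D3:**
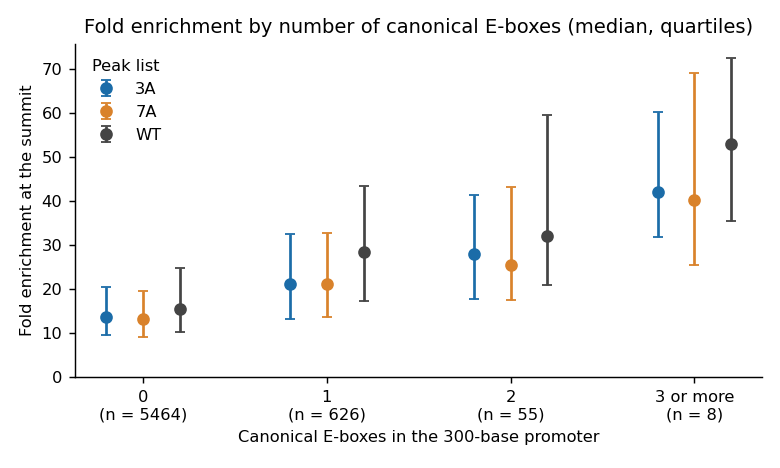
Fold enrichment at the summit (linear ratio; points are medians, bars the quartiles) for members by the number of canonical E-boxes, CACGTG, in the 300-base promoter, in the 3A, 7A and WT lists. The medians for none are 13.3 to 15.5 and those for 3 or more are 40.2 to 53.0, the last over 8 members.

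The canonical E-box also stood closest to the summits. Among members whose summit lies in the promoter and whose promoter holds the string, CACGTG had its centre a median of 16.5 bp from the 3A summit (n = 546), 16.5 bp from the 7A summit (n = 566) and 13.5 bp from the WT summit (n = 544). It lay within 25 bp for 58.8% in 3A (54.5 to 63.0%), 59.7% in 7A (55.6 to 63.8%) and 65.6% in WT (61.5 to 69.6%). The variant CACGCG lay within 25 bp for 42.7% in 3A, 45.3% in 7A and 50.7% in WT. CCAAT, the site of NF-Y, did so for 17.0% in 3A, 15.4% in 7A and 16.1% in WT, with medians of 66 bp, 67 bp and 69 bp. GGGCGG, the GC box bound by SP1, had medians of 35.5 bp in 3A, 36.5 bp in 7A and 36.5 bp in WT, but 77.2% of member promoters hold it.

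**Figure D4:**
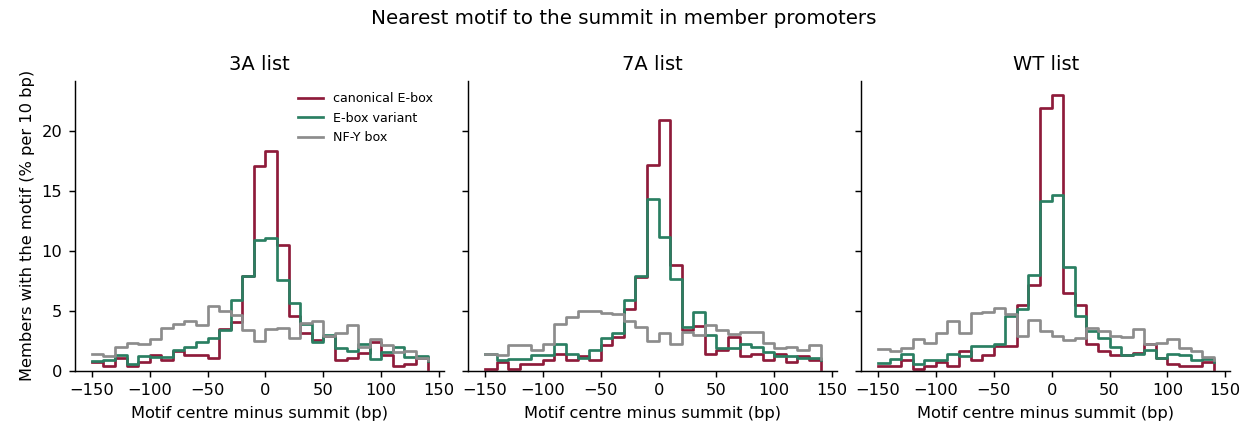
Position of the nearest canonical E-box (CACGTG), E-box variant (CACGCG) and NF-Y box (CCAAT) relative to the 3A, 7A and WT summit (bp), as the share of members with that string (% per 10 bp). The canonical E-box is centred on the summit in each list, with medians of 16.5, 16.5 and 13.5 bp, while the NF-Y box is spread over the promoter.

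The bases next to the E-box went with both its distance and the strength of the peak. Sites were sorted by whether CACGTG is preceded by T or followed by A, which is the same T on the other strand. The 351 sites with no such T had member fold enrichments with a median of 28.2 in 3A (25.4 to 30.7), 27.8 in 7A (25.1 to 30.0) and 38.9 in WT (34.9 to 42.0), and 67.0% in 3A (61.8 to 71.9%), 70.1% in 7A (65.0 to 74.8%) and 73.2% in WT (68.3 to 77.8%) lay within 50 bp of the summit. The 284 sites with T on 1 side had medians of 19.2 in 3A, 20.1 in 7A and 24.1 in WT. The 128 sites with T on both sides, TCACGTGA, had 18.7 in 3A (15.3 to 21.4), 18.02 in 7A (15.4 to 20.1) and 21.0 in WT (18.7 to 24.5), with 41.4% in 3A (32.8 to 50.4%), 41.4% in 7A (32.8 to 50.4%) and 36.7% in WT (28.4 to 45.7%) within 50 bp. The 81 CCACGTGG sites lay a median of 14.5 bp from the 3A summit, 9.5 bp from the 7A summit and 5.5 bp from the WT summit. TCACGTGA is known as the site of TFE3, TFEB and MITF, the E-box factors of lysosomal genes. Several sites can share a promoter, so the sites are not independent of each other. Unlike the distances above, these include sites in promoters that do not hold the summit. How much that adds to the differences in distance was not tested.

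The shares of the other strings were as follows. CACGCG was in 21.4% of member promoters (20.4 to 22.4%), against 14.2% of all promoters and 7.09% of those with no WT summit. At common peaks of 2 or more gene ends it was in 22.4% (20.2 to 24.7%). In the strongest 1000 WT members it reached 32.4% (29.5 to 35.4%), and in the weakest 1000 10.5% (8.67 to 12.6%). CATGTG was in 5.66% of member promoters (5.09 to 6.26%), 8.94% of all and 13.0% of those with no summit. Common peaks of 2 or more gene ends had it in 5.69% (4.52 to 7.04%), so the lower share is not particular to members. Within the members, though, it was in 7.80% of the strongest 1000 (6.21 to 9.64%) and 5.10% of the weakest 1000 (3.82 to 6.65%). CCGGAA, the core of ETS factor sites, was in 29.5% of member promoters (28.4 to 30.7%), in 21.2% of all and in 43.1% at common peaks of 2 or more gene ends (40.5 to 45.8%). CCAAT was in 36.1% of member promoters and 34.6% of all, and was more frequent in the 1000 weakest WT members (43.8%, 40.7 to 46.9%) than in the 1000 strongest (32.7%, 29.8 to 35.7%). GCATGCGC, a core of NRF1 sites, was in 5.64% of member promoters (5.08 to 6.25%), 3.74% of all and 8.31% at common peaks of 2 or more gene ends (6.90 to 9.90%). TGACGTCA, the CRE of CREB and ATF factors, was in 3.66% of member promoters (3.20 to 4.16%) and 2.26% of all. It was in 4.23% at common peaks of 2 or more gene ends (3.23 to 5.43%). Members had a median CpG ratio, observed over expected, of 0.87, beside 0.88 at common peaks of 2 or more gene ends. It was 0.74 for all promoters and 0.34 for those with no WT summit.

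Members were next counted in 17 lists of genes (635 genes, 336 with a member), beside the 38.8% of all protein-coding genes. Where a gene had several members, the strongest in WT stands for it. A gene whose common peak lies only at the ends of 2 or more genes has no member, so these shares are not shares of genes with a common peak. Such genes include 16 cytosolic ribosomal protein genes and 23 ribosome assembly and RNA polymerase I genes. The cytosolic ribosomal protein genes had a member in 55 of 79 (69.6%), and 54 of the 55 stood above the members' WT median. Their median fold enrichment was 34.6 in 3A, 20.5 in 7A and 42.4 in WT, against 13.99, 13.8 and 16.1 over all members. RPL14 had 46.5 in 3A, 19.1 in 7A and 113.2 in WT. RPSA, the laminin receptor homologue of the small subunit, had 81.1 in 3A, 59.1 in 7A and 98.6 in WT. RPL23A had 62.7 in 3A, 25.2 in 7A and 78.5 in WT. Of 42 with a listed promoter, 2 had a CACGTG there. The mitochondrial ribosomal protein genes had a member in 36 of 77 (46.8%), with medians of 15.6 in 3A, 12.6 in 7A and 21.2 in WT, and 23 of the 36 stood above the members' WT median. Of the remaining mitochondrial ribosomal protein genes, 32 had a common peak that lies at the ends of 2 or more genes and so falls outside the rule.

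Ribosome assembly and RNA polymerase I genes had a member in 29 of 56 (51.8%), and all 29 stood above the members' WT median, with medians of 36.4 in 3A, 29.3 in 7A and 47.6 in WT. DHX33 led them in WT, at 186.2, followed by NCL at 177.7. Next came NOP58, a core protein of box C/D ribonucleoproteins, with 27.3 in 3A, 20.6 in 7A and 133.9 in WT, and DKC1, the pseudouridine synthase dyskerin, with 52.3 in 3A, 39.4 in 7A and 132.4 in WT. The partner summits of NOP58 were 376 bp (3A) and 405 bp (7A) from its WT summit. Translation factor genes had a member in 30 of 46 (65.2%), with medians of 25.2 in 3A, 20.0 in 7A and 31.9 in WT. PABPC1, the poly(A)-binding protein gene, had 46.9 in 3A, 44.6 in 7A and 133.9 in WT, and EIF4G1, the scaffold of the cap-binding complex, had 26.4 in 3A, 28.1 in 7A and 91.7 in WT. Aminoacyl-tRNA synthetase genes had a member in 13 of 23 (56.5%), led by IARS1 with 63.3 in 3A, 72.2 in 7A and 99.4 in WT. Splicing factor genes had a member in 22 of 34 (64.7%), and HNRNPL had 75.4 in 3A, 69.7 in 7A and 79.4 in WT.

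Among members at metabolic genes with a listed promoter, CACGTG was there in 5 of 17 nucleotide and one-carbon genes, 3 of 11 glycolysis and lactate transport genes, 2 of 6 polyamine and methionine cycle genes and 3 of 13 mitochondrial import and chaperone genes, beside 11.2% over all members. Such shares were not limited to metabolic genes: it was in 7 of 21 ribosome assembly and RNA polymerase I genes and 7 of 23 translation factor genes. Lower shares were 4 of 20 cell cycle and replication, 3 of 20 splicing factor, 1 of 11 aminoacyl-tRNA synthetase and 1 of 35 mitochondrial ribosomal protein genes. PGK1, ENO1, MTHFD2, MAT2A and TRAP1 were strong members with no CACGTG in the listed promoter, which need not hold the summit. Nucleotide and one-carbon genes had a member in 19 of 33 (57.6%). MTHFD1L had 129.2 in 3A, 97.6 in 7A and 140.7 in WT, and ATIC, of purine synthesis, 53.0 in 3A, 58.3 in 7A and 127.9 in WT. PPAT, the first enzyme of purine synthesis, had 96.2 in 3A, 54.8 in 7A and 94.9 in WT. Glycolysis and lactate transport genes had a member in 14 of 23 (60.9%), with the highest WT median of the lists, 52.0, beside 32.2 in 3A and 31.8 in 7A. HK2 had 39.8 in 3A, 31.2 in 7A and 115.9 in WT, and LDHA, lactate dehydrogenase A, 57.8 in 3A, 64.6 in 7A and 100.3 in WT with 2 CACGTG. Polyamine and methionine cycle genes had a member in 8 of 14 (57.1%): ODC1 had 73.8 in 3A, 123.0 in 7A and 112.9 in WT, and SRM, spermidine synthase, 42.1 in 3A, 88.2 in 7A and 83.8 in WT. Mitochondrial import and chaperone genes had a member in 13 of 26, led by TRAP1 with 35.7 in 3A, 33.6 in 7A and 82.1 in WT.

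**Figure D5:**
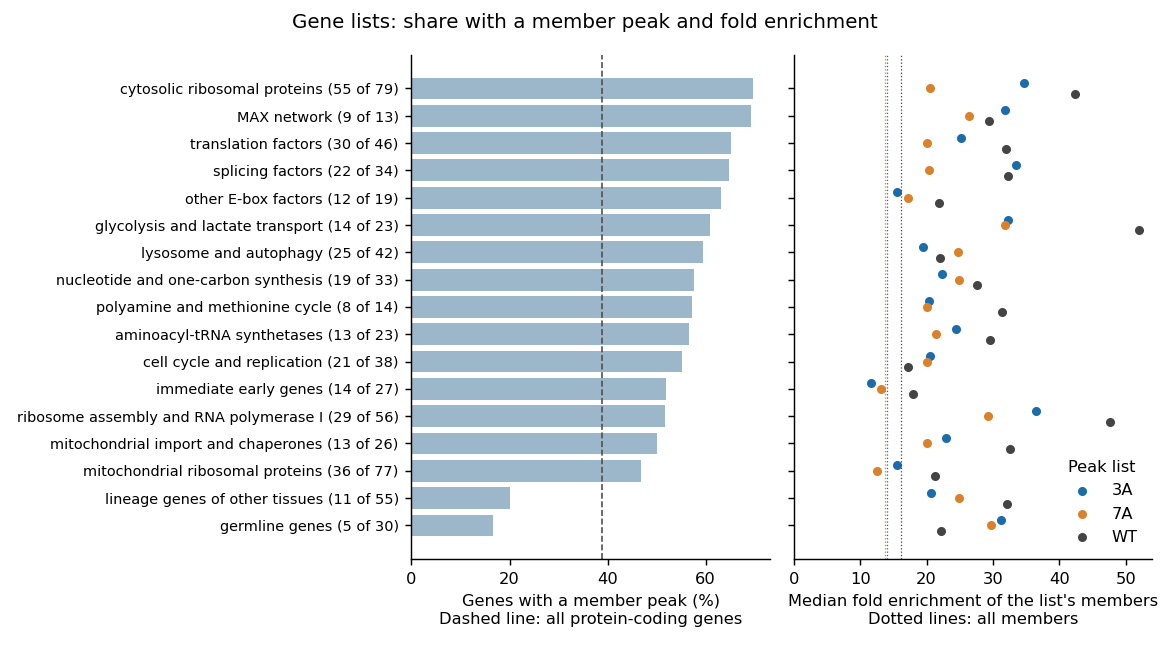
Left: share (%) of the genes of each list with a member, with counts; the dashed line is the 38.8% of all protein-coding genes. Right: median fold enrichment of the list's members (strongest member per gene) in the 3A, 7A and WT lists; dotted lines are the medians over all members. Cytosolic ribosomal protein genes have the highest share, 69.6%, and germline genes the lowest, 16.7%. Genes whose common peak lies only at the ends of 2 or more genes do not count here (16 cytosolic ribosomal protein and 7 germline genes). Glycolysis genes have the highest WT median, 52.0.

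Of the 13 genes of the MAX network, 9 had a member (69.2%), with medians of 31.8 in 3A, 26.4 in 7A and 29.4 in WT. The antagonist genes stood on both sides of these medians: MXD3 had 52.4 in 3A, 47.0 in 7A and 74.3 in WT, MXD1 had 22.3 in 3A, 22.6 in 7A and 60.3 in WT, MGA had 75.2 in 3A, 60.9 in 7A and 53.0 in WT, MNT had 31.8 in 3A, 32.3 in 7A and 26.9 in WT, and MXD4 had 37.0 in 3A, 24.8 in 7A and 24.8 in WT. MLXIP, the glucose sensor MondoA, had 98.0 in 3A, 65.4 in 7A and 68.3 in WT. MAX itself had 17.0 in 3A, 22.3 in 7A and 29.4 in WT, with the 3A and 7A summits 5 bp and 1 bp from the WT summit. The MYC paralogue genes were weaker in WT: MYCN had 21.0 in 3A, 26.4 in 7A and 9.80 in WT, and MYCL had 6.23 in 3A, 7.95 in 7A and 4.70 in WT. MNT and MXD4, but not the other 7, had a CACGTG in the listed promoter. Other E-box factor genes had a member in 12 of 19 (63.2%), with medians of 15.6 in 3A, 17.2 in 7A and 21.8 in WT, and none of 11 listed promoters held a CACGTG.

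Cell cycle and replication genes had a member in 21 of 38 (55.3%), with medians of 20.6 in 3A, 20.1 in 7A and 17.2 in WT. The WT median was close to the 16.1 of all members, while those of 3A and 7A were above the 13.99 and 13.8 of all members. CDK6 had a WT member of 4882 bp, among the 3 widest with COL16A1 at 5581 bp and HMGA2 at 4113 bp, and fold enrichments of 35.3 in 3A, 58.5 in 7A and 46.2 in WT. Lysosome and autophagy genes had a member in 25 of 42 (59.5%), with medians of 19.4 in 3A, 24.8 in 7A and 21.9 in WT, and 7 of 15 listed promoters held a CACGTG. WIPI1, of autophagosome formation, had 157.0 in 3A, 141.6 in 7A and 62.8 in WT, and CTSF, cathepsin F, had 68.6 in 3A, 111.5 in 7A and 46.1 in WT. GUSB, the lysosomal beta-glucuronidase gene, had 90.8 in 3A, 48.4 in 7A and 85.7 in WT. Immediate early genes had a member in 14 of 27 (51.9%), with medians of 11.7 in 3A, 13.2 in 7A and 18.01 in WT, and DUSP2 led them with 41.6 in 3A, 68.3 in 7A and 112.9 in WT.

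The lists of genes for other tissues and the germline had fewer members. Germline genes had 5 of 30 (16.7%) and lineage genes of other tissues 11 of 55 (20.0%), below the 38.8% of all genes. A further 7 germline and 2 lineage genes had a common peak only at the ends of 2 or more genes. No WT peak at an end was found for 17 germline and 39 lineage genes. Of those with a member, 3 of 5 germline and 9 of 11 lineage genes stood above the members' WT median, and the lowest WT values were 4.97 and 9.15. TUBA3C, a testis tubulin gene, had 48.1 in 3A, 41.4 in 7A and 40.3 in WT. ACTN2, the muscle alpha-actinin gene, had 49.1 in 3A, 66.6 in 7A and 84.7 in WT, with 2 CACGTG in its promoter. SNAP25, a synaptic gene, had 75.1 in 3A, 51.7 in 7A and 40.1 in WT. OLIG2, an oligodendrocyte transcription factor gene, had 8.24 in 3A, 11.2 in 7A and 44.0 in WT, so that it was below the members' median in both mutant lists. SYCE2, of the synaptonemal complex, had 24.8 in 3A, 66.7 in 7A and 15.7 in WT.

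The genes with 3 members were SCD, CMIP, NAPSA and MDGA1, each with peaks at both ends. SCD, stearoyl-CoA desaturase, had its strongest WT member 685 bp upstream of the start, with 12.3 in 3A, 11.6 in 7A and 81.9 in WT. A second lay 749 bp inside the gene, with 15.99 in 3A, 17.8 in 7A and 30.4 in WT, and the third was 234 bp past the gene's far end, with 25.0 in 3A, 11.6 in 7A and 26.4 in WT. The upstream SCD peak thus ranked 139th in WT and 4683rd in 3A. At the other 3 genes the members had WT fold enrichments between 5.37 and 22.7.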

How the data were processed

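MAX ChIP-Rx of U2OS cells is analysed from 3 peak lists, 1 per MYC form, as deposited; 12 immunoprecipitated and 6 input libraries stand behind them. Per the submitters' processing notes, the tools were MACS2, Picard, SAMtools, Bowtie2 and Cutadapt, and genome builds listed there are mm10, hg38 and hg19. How libraries were pooled, which control was used and whether mouse reads scaled the signal are not given in the sources used here. Per the file layout, the authors' columns give positions, a score, the fold enrichment at the summit (a ratio), −log10 p, −log10 q and the summit offset. The deposited score was not used further. The lowest −log10 q in the authors' lists was 5.04 in 3A, 5.69 in 7A and 5.15 in WT. Columns of other samples numbered 0.

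Positions were read as hg38 and are printed counting from 1. A member with several partners in a list was given the one with the nearest summit. Gene ends came from the RefSeq gene table (GRCh38.p14), and strand and 300-base promoters (250 bases before and 50 after a start) from the RefSeq promoter table, which matched 15813 of 19974 protein-coding genes. Strings were searched on both strands: CACGTG (canonical E-box), CACGCG and CATGTG (variants), CCAAT (for NF-Y), GGGCGG (for SP1), CCGGAA (for ETS factors), GCATGCGC (for NRF1) and TGACGTCA (for CREB). Neighbouring hits may share bases, and each string was counted on its own. Summit coverage was solved from the fold enrichment with a pseudocount of 1 and the Poisson tail of −log10 p, which assumes the peak caller's default formulas. On simulated data it solved 87.0% of 5000 summits, each within 1%; the member rule found 200 of 200 planted members among 600 peaks, with 0 wrong, and the string search 500 of 500.

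Named genes were the 10 strongest WT members, the 5 strongest partners in 3A and in 7A, the 3 weakest and 3 widest in WT, up to 4 per gene list, the MAX network, genes with most members, and those nearest the 1000 bp limit. Sequences were shown for the strongest members of gene lists and the strongest without CACGTG, narrowed after seeing values to promoters that hold the WT summit, and not all are printed. Members and lists were chosen with earlier results of these data known. Shares have 95% Clopper-Pearson intervals and medians have binomial order-statistic intervals. The depth of the libraries is unknown. Doxycycline and vehicle could not be separated. Software was SciPy 1.17.1, NumPy 2.4.6, matplotlib 3.10.9, pandas 2.3.3 and Python 3.11.15. Other windows, overlaps, thresholds and list lengths were tried.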

Additional observations from a re-analysis of the deposited data

How the results depend on the processing

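With 1 pooled list per MYC form, no spread between replicates can be given, and list length and depth can set which peaks are common. No paired analysis was possible because the lists carry no replicate values, and for the same reason no replicate could be left out. Of 171 values over 28 results under the alternatives, 133 stayed within 1.5 times the count or within the 95% interval reported, and 38 did not. The number of members ran from 6242 (summits within 100 bp) to 8516 (window of 2500 bp). A limit of −log10 q of at least 10 in all 3 lists moved none of the 28. In each case below the cause was not tested, beyond the smaller or larger set of peaks that the alternative itself makes.

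A window of 500 bp gave median fold enrichments of 14.3 in 3A and 14.05 in 7A, widths of 901 bp in 7A and 976 bp in WT, 79.9% with close summits, 97.9% at a start, CACGTG in 12.3%, and 9 immediate early and 7 lineage genes. A window of 2500 bp gave 13.7 and 831 bp in 3A, and 94.7% at a start. An overlap of at least 50% of both peaks gave 14.3 and 875 bp in 3A and 977 bp in WT. Summits within 100 bp gave 14.97 and 810 bp in 3A, 14.6 and 878 bp in 7A, 16.8 and 956 bp in WT, CACGTG in 12.2%, 100% with close summits by construction, and 7 other E-box factor, 3 polyamine and methionine cycle, 14 splicing factor and 9 immediate early genes. Lists cut to the 25157 peaks of the shortest gave 14.98 and 879 bp in 3A, 14.6 and 947 bp in 7A, 17.3 and 1032 bp in WT, 79.3% with close summits and CACGTG in 12.0%. Close summits made up 70.5% at 50 bp and 83.6% at 200 bp. In the 250 bases before the start alone, CACGTG was in 9.95%.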
